A study of Mus musculus with 73 samples.

Results

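The 10 genes described here are Ear1, Ear2, 1100001G20Rik, Car4, Marco, Siglec5, Itgax, Plet1, Fabp1 and Krt79, 10 of the 23994 gene rows of the expression table, followed over all 73 single cells of the study. They were picked by name for their high levels in the cells that resemble alveolar macrophages, so their contrast with the other cells is a description and carries no test. A single adult mouse, 10 weeks old, gave every cell, from its right lung 7 days after the left lung had been removed (pneumonectomy). The mouse expressed green fluorescent protein from the Csf1r promoter, and cells were sorted for CD45, CSF1R-GFP and F4/80 as macrophages. Ly6G is part of the sort in the labels, which do not say whether it was selected for or against. Single cells were captured on a Fluidigm C1 chip and their polyadenylated RNA was amplified with SMARTer chemistry. All cells form 1 group with the same genotype, operation, day and sort, and cells of 1 mouse are not replicates of that state. No unoperated lung was analysed here.

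Alveolar macrophages are the resident phagocytes of the air spaces, where they take up surfactant, particles and microbes. Their identity depends on the cytokine GM-CSF, on TGF-beta and on the transcription factor PPAR-gamma, and in mice they are recognised by the surface proteins CD11c and Siglec-F. Of the 10 genes, Ear1 and Ear2 encode secreted ribonucleases of the eosinophil-associated family, and 1100001G20Rik, now called Wfdc21, encodes a small secreted protein with a whey acidic protein domain. Car4 (carbonic anhydrase on a lipid anchor), Marco (a scavenger receptor for bacteria and particles), Siglec5 (the former symbol of Siglecf, the lectin Siglec-F), Itgax (the integrin chain CD11c) and Plet1 (a protein on a lipid anchor) act at the cell surface. Fabp1, a carrier of fatty acids in the cytosol, and Krt79, an intermediate filament keratin, are neither on the surface nor secreted, so the working name of surface and secreted genes does not cover them.

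Ear1 and Ear2 are near copies of each other, and their letters bear on how far the 2 transcripts could be told apart. In the GRCm38 annotation both lie on chromosome 14, Ear1 from 43818765 to 43819639 on the minus strand and Ear2 from 44102654 to 44103531 on the plus strand. Their coding sequences, of 465 and 468 bases, matched at 445 of 468 aligned columns (95.09%), with 20 mismatches and 3 gap columns. The longest stretch without a difference was 96 bases. The lines below show 90 bases of each coding sequence, positions 81 to 170 counted from the first base of the start codon. Capitals mark the 8 bases that differ.
Ear1: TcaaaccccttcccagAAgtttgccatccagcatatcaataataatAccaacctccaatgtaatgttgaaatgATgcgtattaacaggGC
Ear2: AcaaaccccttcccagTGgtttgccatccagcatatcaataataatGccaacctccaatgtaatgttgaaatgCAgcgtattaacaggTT

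The resemblance was closer still upstream. In the 250 bases before the annotated start site (RefSeq, GRCm38.p6), 246 of 248 aligned bases were the same (99.19%). The window is chr14:43819640-43819889 on the minus strand for Ear1 and chr14:44102404-44102653 on the plus strand for Ear2. Both are printed because the 2 genes differed in level outside the alveolar group, as described further on, with almost the same sequence before their start. Capitals mark the 2 mismatched bases and the 2 end bases that lie outside the alignment.
Ear1: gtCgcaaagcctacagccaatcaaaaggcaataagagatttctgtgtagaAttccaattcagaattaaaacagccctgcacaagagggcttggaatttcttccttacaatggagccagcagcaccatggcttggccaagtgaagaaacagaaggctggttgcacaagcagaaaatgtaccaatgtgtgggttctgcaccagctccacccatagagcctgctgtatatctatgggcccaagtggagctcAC
Ear2: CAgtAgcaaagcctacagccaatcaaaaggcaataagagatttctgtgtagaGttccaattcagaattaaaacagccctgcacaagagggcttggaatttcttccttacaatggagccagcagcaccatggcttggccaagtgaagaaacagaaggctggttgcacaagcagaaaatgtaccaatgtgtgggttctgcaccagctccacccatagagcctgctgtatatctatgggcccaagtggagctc

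A gene was called detected in a cell at FPKM of 1 or more, where FPKM counts fragments relative to transcript length and library size. The mouse fragments behind each cell were estimated from the second table and ran from 347004 to 3486052, with a median of 1408853, and 1044 to 3745 genes were detected per cell. A spike-in RNA took a further share of each library, with a median of 36.6%. The cells were clustered with the 10 genes left out, so that none of them decided which cell belonged where. A group of 12 cells (16.4% of 73, exact 95% interval 8.79 to 26.95, counting error only) is called alveolar-macrophage-like, or the alveolar group. It was the cluster with the highest mean level over 12 other alveolar macrophage markers. Of these 12, Chil3, Atp6v0d2, Ltc4s and Lpl were among its 10 leading genes. The other 61 cells comprised 50 classical-monocyte-like cells, 6 interstitial-macrophage-like cells led by C1qa, C1qb and C1qc, and an unnamed cluster of 5 cells. The name of the 50 follows the leading genes of their cluster and does not hold for each cell. Among them cells 2, 27, 41, 57, 93 and 95, described further on, held 1 to 3 of 10 classical monocyte markers. Of the genes behind the sort, Ptprc (CD45) was detected in 10 of the 12 alveolar cells, Csf1r in 8 and Emr1 (F4/80) in 7, against 59, 57 and 34 of the 61 others.

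Of the 10 genes, 9 had a far higher mean in the alveolar group than outside it, and Siglec5 did not. On the log2(FPKM + 1) scale the difference in means ran from 0.92 for Siglec5 and 3.76 for Itgax to 7.99 for Ear2 and 9.15 for 1100001G20Rik. At least 2 log2 units higher were 9 of the 10 genes, where 6.26% of 6151 genes detected in at least 8 cells reached that size. Siglec5, found in 7 cells, did not enter that set of 6151. The median difference was 6.19 over all 10 genes, Siglec5 included, and 0.10 over the 6151. Detection in at least 50% of the alveolar cells and at most 10% of the others was met by 5 of the 10 genes (Car4, Plet1, Krt79, Fabp1 and Marco), against 1.27% of the 6151. Since the genes were chosen for this contrast, nothing is read from these counts.

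**Figure D1:**
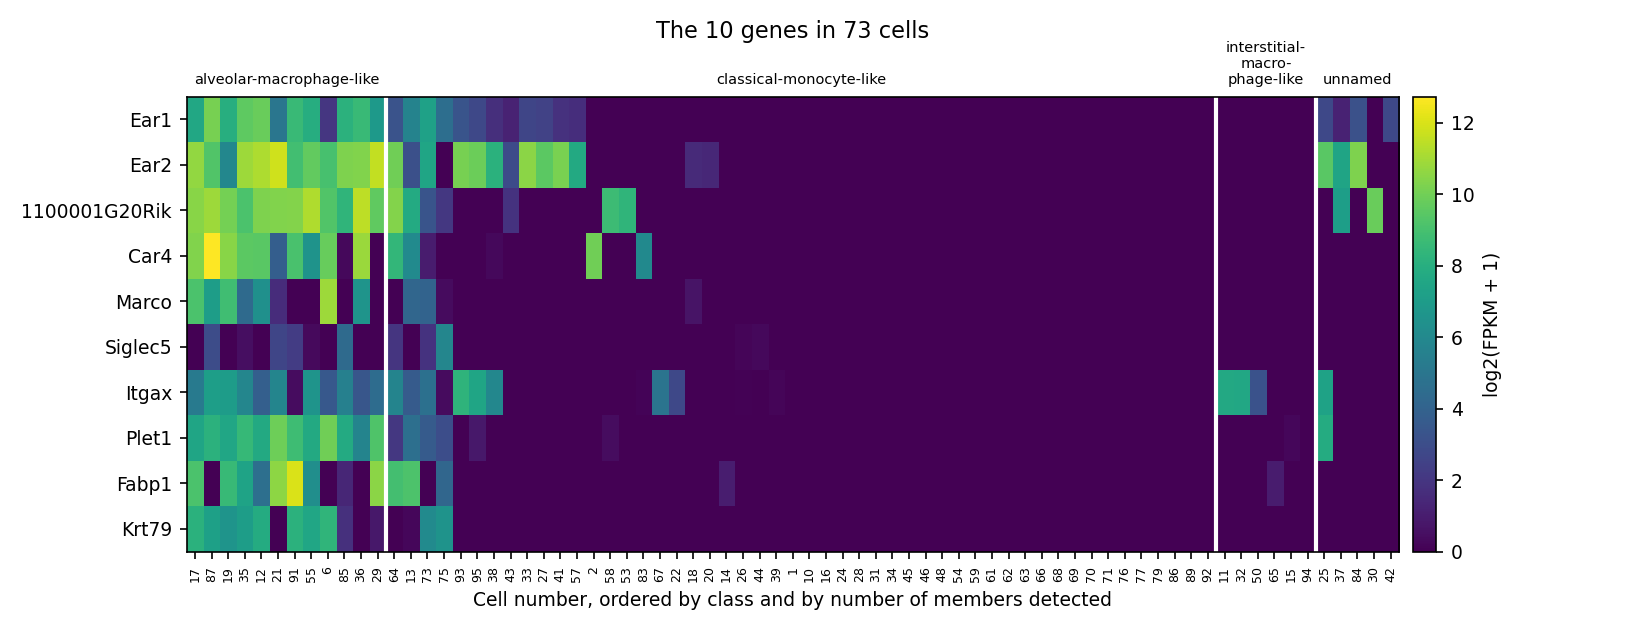
Level of each of the 10 genes (rows) in each of the 73 cells (columns), as log2(FPKM + 1) in colour, with white lines between the 4 clusters and cells ordered within a cluster by how many of the genes they held. The 12 alveolar-macrophage-like cells at the left held 6 to 9 of the genes each, and 32 of the 61 other cells held none.

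The FPKM of 1100001G20Rik ran from 326 to 2817 in the 12 alveolar cells, with a median of 1257 and a mean of 1313 ± 746 (SD over 12 cells). Outside the group 9 of 61 cells held it (14.8%, interval 6.98 to 26.2), with a highest value of 1329 in cell 64. Cells 64, 30, 58 and 53, at FPKM of 1329, 905, 417 and 327, lay within the alveolar range, and the other 5 carriers lay below every alveolar cell. The locus is on chromosome 11 from 83746940 to 83752646 and is annotated as protein-coding, as are the other 9 genes. The gene also varied least among the alveolar cells, with a coefficient of variation of 0.568.

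Ear2 had FPKM from 57.6 to 3599 in the 12 alveolar cells, a median of 1259 and a mean of 1459 ± 1095. Detection was complete in the group, 12 of 12 cells (interval 73.5 to 100%), and reached 16 of the 61 others (26.2%, 15.8 to 39.1). The outside values overlapped those of the group widely. Of the 16 outside carriers, 12 had FPKM of 10 or more, and the highest, cell 33 at 1478, was above the alveolar median. The alveolar group accounted for 42.9% of all cells with Ear2 and for 65.5% of the summed FPKM.

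Ear1 was lower, with FPKM from 3.10 to 1103, a median of 271 and a mean of 391 ± 351 in the 12 alveolar cells. The count of carriers was the same as for Ear2, 12 of 12 and 16 of 61, but the outside levels were unlike. The highest outside value was 155, in cell 73, only 3 outside cells had FPKM of 10 or more, and the alveolar group held 94.1% of the summed FPKM. By cell, 11 of 12 alveolar cells exceeded FPKM of 30, a level that cells 13 and 73 alone reached outside the group.

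Among the surface proteins, Car4 (chromosome 11, 84957754 to 84966054) reached the highest single value, 6830 in cell 87. Its alveolar median was 716 and its mean 1188 ± 1874, and it was detected in 10 of 12 alveolar cells (83.3%, 51.6 to 97.9), with cell 29 at 0 and cell 85 below 1. Outside the group 4 of 61 cells held it (6.56%, 1.82 to 15.9). The low-level carriers of the group overlapped with these cells: alveolar cell 21, at 12.98, lay below all 4, which were at 64.7 to 997. Of all cells with Car4, 71.4% were alveolar.

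Plet1 (chromosome 9, 50494525 to 50505639) was present in all 12 alveolar cells, with FPKM from 51.8 to 1011, a median of 255 and a mean of 396 ± 314. Outside, 5 of 61 cells held it (8.20%, 2.72 to 18.1), and 4 of the 5 were at 23.8 or less, below every alveolar cell. The exception was cell 25, of the unnamed cluster, at 231. With 94.5% of its summed FPKM in the group, Plet1 combined full detection in the alveolar cells with few carriers elsewhere.

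Marco (chromosome 1, 120474538 to 120505024) had the largest share of its summed FPKM in the group, 99.0%, and was uneven within it. Its FPKM was 0 in 4 of the 12 alveolar cells, 52.1 at the median and 1866 at the highest, in cell 6. Detection was 8 of 12 (66.7%, 34.9 to 90.1) against 2 of 61 (3.28%, 0.400 to 11.3), and the outside carriers were cells 13 and 73, at 17.3 and 15.4. Of the 8 alveolar carriers, only cell 21, at 2.03, lay below them.

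Itgax (chromosome 7, 128129526 to 128150657), which encodes the CD11c used to gate alveolar macrophages, had the lowest share of its summed FPKM in the group, at 33.03%. It was detected in 11 of 12 alveolar cells (91.7%, 61.5 to 99.8), with values from 0.318 to 140.0, a median of 40.4 and a mean of 51.4 ± 47.8. In the 61 others it was detected in 12 (19.7%, 10.6 to 31.8), and the 5 highest of these, cells 93, 11, 32, 95 and 25 at 163 to 316, exceeded every alveolar cell. In all, 7 of the 12 carriers were at or above the alveolar median. It was detected in 3 of 6 interstitial-macrophage-like cells, where the other 9 genes were detected in 0.

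Siglec5 (chromosome 7, 43351341 to 43359475), the Siglec-F gene, was scarcely detected. Its values in the 12 alveolar cells were 0 in 6 cells, 0.133 at the median and 19.9 at the highest, in cell 85, and 4 of 12 reached FPKM of 1 (33.3%, 9.92 to 65.1). Outside the group 3 of 61 cells reached it (4.92%, 1.03 to 13.7), and the highest value of all 73, 56.4, was in cell 75. Groups overlapped fully. About 756 fragments of this gene were estimated over all cells together, against 20266 for Itgax, so a cell listed at 0 may hold transcripts below what could be detected at this depth.

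The intracellular proteins were found in 9 of 12 alveolar cells each (75%, 42.8 to 94.5). Krt79 (chromosome 15, 101929332 to 101940324) had FPKM from 0 to 324, a median of 143 and a mean of 141 ± 123, and its 2 outside carriers were cells 75 and 73, at 91.2 and 67.6. Of all genes here it had the largest share of its carriers in the group, 81.8% of 11 cells, with an interval of 48.2 to 97.7. Fabp1 (chromosome 6, 71199879 to 71205034), best known from liver and intestine, ran from 0 to 4183, with a median of 122 and a mean of 698 ± 1228. Its 4 outside carriers included cells 13 and 64 at 570.1 and 487, both above the alveolar median, and the other 2 were at 17.4 and 1.01.

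**Figure D2:**
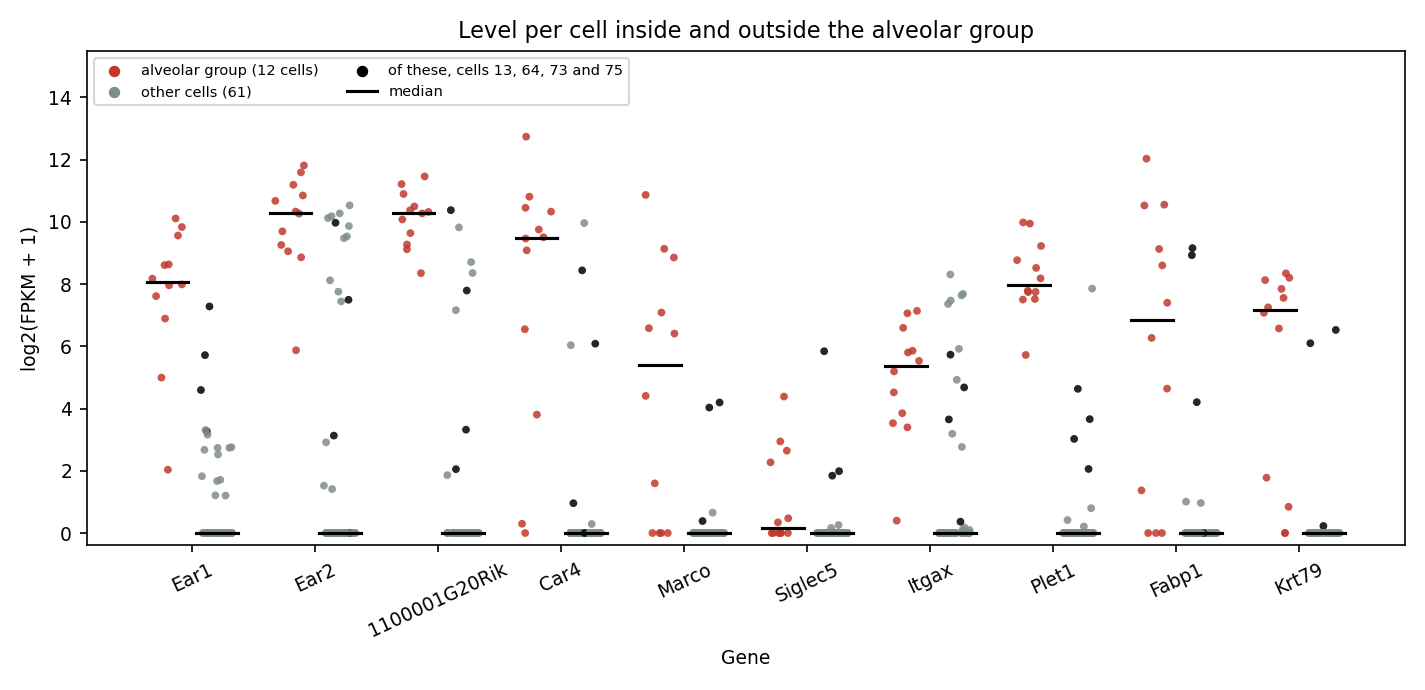
Level of each gene per cell as log2(FPKM + 1), with 1 point per cell: red for the 12 alveolar-macrophage-like cells, grey for the 61 others and black for cells 13, 64, 73 and 75 among these; bars are medians. The outside medians were 0 for all 10 genes, and for Itgax and Siglec5 the highest points belonged to cells outside the group.

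By the share of carriers that were alveolar, the order ran from Krt79 (81.8%) and Marco (80%) over Car4 (71.4%), Plet1 (70.6%) and Fabp1 (69.2%) to Siglec5 and 1100001G20Rik (both 57.1%), Itgax (47.8%), Ear1 and Ear2 (both 42.9%). The exact intervals of neighbours in this order overlapped throughout, and those of Krt79 (48.2 to 97.7) and Ear2 (24.5 to 62.8), at its ends, overlapped too. By the share of summed FPKM the order was another, led by Marco (99.0%), Plet1 (94.5%) and Ear1 (94.1%) and closed by Siglec5 (36.8%) and Itgax (33.03%). Ear1 stood at the foot of the first order and near the head of the second, and 13 of its 16 outside carriers were below FPKM of 10.

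The median depth was 1057393 mouse fragments in the alveolar group and 1421321 in the others, so detection was also counted after thinning every cell to 347004 fragments. Thinned values were scaled back up to FPKM before the threshold of 1 was applied, so a value below 1 could also rise past it. Alveolar and outside carriers then numbered 11 and 13 for Ear1, 12 and 7 for 1100001G20Rik, 10 and 5 for Car4 and 12 and 6 for Plet1. For the other 6 genes both counts were as without thinning.

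Outside the alveolar group, 32 of 61 cells held none of the 10 genes, 14 held 1, 5 held 2 and 5 held 3. Cell 25 held 4, cell 75 held 6, and cells 13, 64 and 73 held 8 each, a number within the 6 to 9 (median 8.5) of the alveolar cells. All 4 cells with 6 or more were classical-monocyte-like by their cluster. At FPKM of 10 or more instead of 1, the outside cells with at least 3 of the genes numbered 5 in place of 10.

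Cells 13, 64, 73 and 75 were not alike. Of the 12 other alveolar markers, which were not used to pick them, cells 13, 64 and 75 held 9, 10 and 9, within the 8 to 12 of the alveolar cells, whereas cell 73 held 4. No other outside cell held more than 4. Of the 10 classical monocyte markers they held 8 (cell 13), 5 (cell 64), 10 (cell 73) and 7 (cell 75), where the alveolar cells held 1 to 3. Chil3 is in both lists and counts toward both numbers. It was detected in each of these cells and in all 12 alveolar cells.

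**Figure D3:**
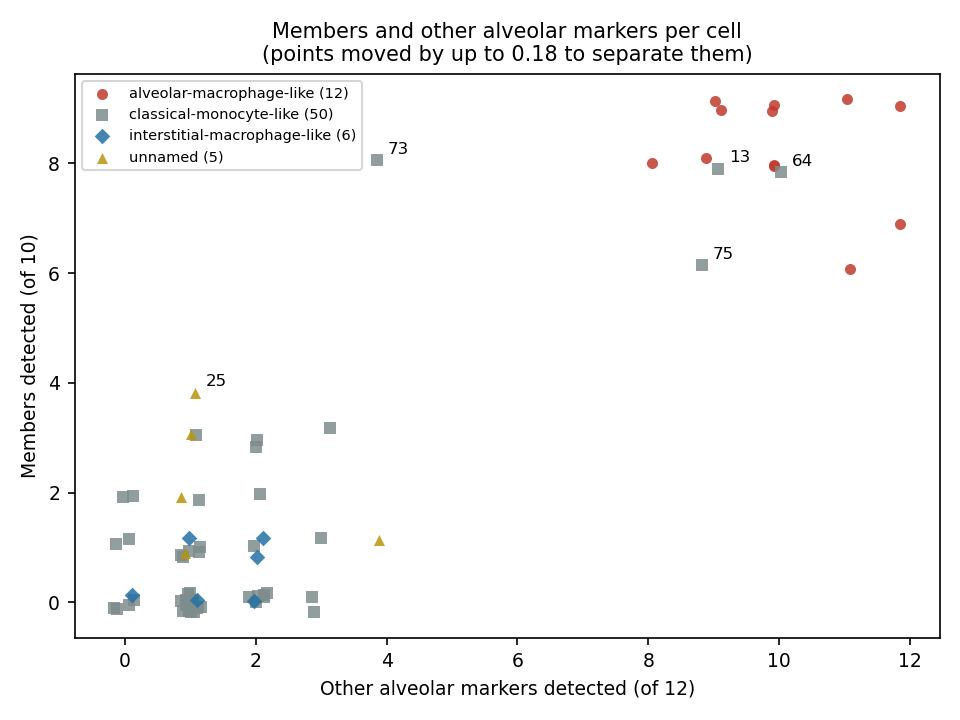
Number of the 10 genes detected in each cell against the number of 12 other alveolar macrophage markers detected in it, with points moved slightly to separate them and shapes for the 4 clusters. Cells 13, 64 and 75 sit beside the 12 alveolar-macrophage-like cells, with 9 or 10 other markers, and cell 73 sits alone with 8 of the genes and 4 other markers.

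Over the 11 other alveolar markers with an alveolar median above 0, the median level was 19.2% of the alveolar one in cell 64, 10.2% in cell 75, 3.11% in cell 13 and 0 in cell 73. In cell 64, Ear2, 1100001G20Rik, Car4, Fabp1 and Itgax were at FPKM of 1003, 1329, 347, 487 and 52.2. Its Ear1 and Plet1 were at 8.64 and 3.17, or 3.19% and 1.24% of the alveolar medians, and Krt79 and Marco were at 0. Ly6c2 and Plac8, markers of classical monocytes, were at 0 in it and Ccr2, a chemokine receptor of monocytes, was at 3.78. Chil3, a chitinase-like protein abundant in alveolar macrophages, stood at 1630, below the alveolar range of 2267 to 8394.

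Cell 13 held Fabp1 at 570.1, 1100001G20Rik at 221, Car4 at 66.9, Ear1 at 51.6, Plet1 at 23.8, Marco at 17.3, Itgax at 11.6 and Ear2 at 7.76. Together with these it carried Plac8 at 7803, Ly6c2 at 388 and Ccr2 at 204. In the alveolar group Ly6c2 and Ccr2 were detected in 0 of 12 cells, where the limit taken for a count of 0, 3 cells, would be 25%. Plac8 was detected in 2 of the 12 alveolar cells, at 2.94 or less. Of the 10 genes, 5 were below 10% of the alveolar median in cell 13.

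Cell 73 held Ear2 at 179.7, Ear1 at 155, Krt79 at 67.6, Itgax at 24.6, Marco at 15.4, Plet1 at 11.6, 1100001G20Rik at 9.001 and Siglec5 at 2.59. Its Ly6c2 was 937 and its Ccr2 597, and Chil3, which both alveolar macrophages and classical monocytes express, was at 3160. Atp6v0d2, Ctsk, Pparg, Ltc4s and Krt19 were at 0 in it, whereas Il18, at 339, was above the alveolar median of 245, and Lpl (3.89) and Cidec (2.39) were detected at low levels.

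Cell 75 had the highest outside Krt79, 91.2, and the highest Siglec5 of all, 56.4, with Ear1 at 23.2, Fabp1 at 17.4, Plet1 at 7.14 and 1100001G20Rik at 3.15. Ear2 was listed at 0. Its Ccr2 was 393, its Plac8 1069 and its Ly6c2 36.3. Among the other alveolar markers, Ltc4s (194) was above the alveolar median of 98.04 and Fabp4 (159) and Ctsk (132) were below medians of 227 and 146. Atp6v0d2 (16.1), Krt19 (19.4) and Lpl (1.58) were far lower than medians of 352, 191 and 321, and Pparg and Cidec were at 0.

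By mouse fragments these 4 cells were at ranks 5 (cell 64), 6 (cell 73), 24 (cell 13) and 25 (cell 75) of 73. All 4 were above the median depth of the cells outside the group, 1421321. They had 2631 to 3143 detected genes, where the median was 2174 outside the group and 2739.5 in it. Thinned to 347004 fragments, they held 8, 9, 8 and 5 of the genes in that order. Without them, the outside carriers of Krt79, Marco and Siglec5 numbered 0, those of Plet1 and Fabp1 1 each, those of Car4 2 and those of 1100001G20Rik 5, and the outside cells with at least 3 of the genes numbered 6. Whether 2 cells had shared a capture site was not tested, and no doublet caller was run.

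Other outside carriers of the rarer genes were single cells. The highest outside Car4, 997, was in cell 2, where 6 of 10 endothelial markers were also detected, among them Egfl7 at 917, Ramp2 at 564 and Cldn5 at 307. Car4 is also known from the capillary endothelium of the lung, and the part of endothelial RNA in this value was not tested. Cell 83 held Car4 at 64.7 with 0 of the 10 endothelial markers and none of the other 9 genes. In cell 25 Plet1 (231) came with Ear2 (711), Itgax (163) and Ear1 (5.77), and 1 of the 12 other alveolar markers. 1100001G20Rik was detected in cell 37 beside Ear2 (173), in cell 43 at 2.63, and alone in cells 30, 53 and 58.

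Part of the Ear2 outside the group lay in cells with markers of another monocyte type. Ear2 is also known from non-classical monocytes, which patrol vessel walls, and 13 other markers of these were counted, among them Treml4, Ace, Spn, Fcgr4 and Cd300e. Cells 27, 38, 41, 57 and 93 held 9 or more of the 13, and all 5 had Ear2 at FPKM of 10 or more. Their Ear2 values were 741, 277, 1161, 216 and 1115. Treml4 ran from 48.1 to 729.7 in the same 5 cells, Ace from 29.8 to 247 and Spn from 33.3 to 194. Cell 38 also held 6 of 10 endothelial markers, the highest of them Egfl7 at 71.1. Of 5 outside cells with 5 to 8 of the 13 markers, 0 held Ear2, and of 51 with 0 to 4 markers 11 held it, 7 of them at FPKM of 10 or more.

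**Figure D4:**
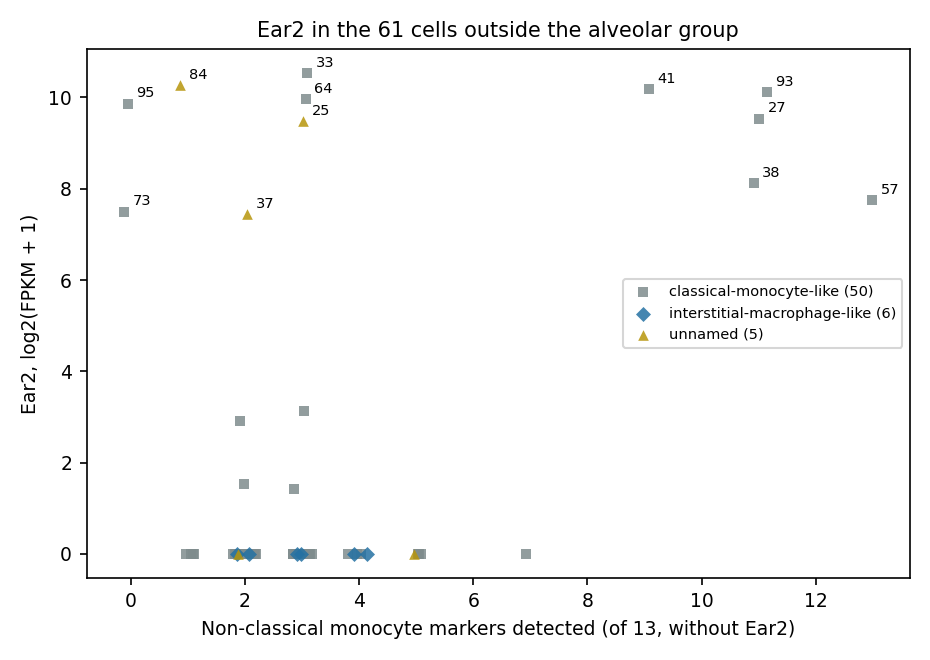
Ear2 as log2(FPKM + 1) in the 61 cells outside the alveolar group against how many of 13 non-classical monocyte markers each held, with shapes for the clusters and numbers for the cells with FPKM of 10 or more. The 5 cells with 9 or more markers were all among the 12 with high Ear2, and the other 7 held 3 or fewer of the markers.

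Those 7 cells were cells 25, 33, 37, 64, 73, 84 and 95. In cell 95 (Ear2 at 932, Itgax at 177) 4 of 9 conventional dendritic cell markers were detected, with Cd209a at 4429, Batf3 at 129, Dpp4 at 53.1 and Itgae at 11.1. Cell 84 (Ear2 at 1237) held 3 of them, Cd209a at 413, Batf3 at 268 and Xcr1 at 5.52. Cells 33 and 37 held 9 and 10 of the 10 classical monocyte markers. Eosinophils, after which the Ear family was named, also express Siglec-F, but no cell of the 73 held more than 2 of 5 eosinophil markers (Epx, Prg2, Ccr3, Il5ra and Ear6).

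In 11 of its 16 outside carriers Ear1 came with Ear2 at a small and narrow ratio. Among the 12 outside cells with Ear2 at FPKM of 10 or more, Ear1 was at 0.219 to 1.02% of Ear2 in 11, on 1 to 25 estimated fragments per cell. Cell 73 was the exception among these 12, at 86.1%. The other outside carriers had Ear2 below 10. Cells 13 and 43 had Ear1 at 51.6 and 1.31 with Ear2 at 7.76 and 6.54. Cells 75 and 42 had Ear1 at 23.2 and 5.67 without detected Ear2. Within the alveolar group 2 of 12 cells had such a ratio, cell 6 at 0.584% and cell 21 at 0.858%, and the other 10 ran from 3.82% in cell 29 to 439% in cell 19, with a median over all 12 of 30.1%. No cell lay between 1.02% and 3.82%. How fragments from sequence shared by the 2 genes were assigned was not given in the sources used here, so Ear1 values at such ratios are uncertain, and their source was not tested. With Ear1 taken as 0 where it was 2% of Ear2 or less, 5 of its 16 outside carriers were left (cells 13, 42, 43, 73 and 75), and 6 outside cells held at least 3 of the 10 genes.

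**Figure D5:**
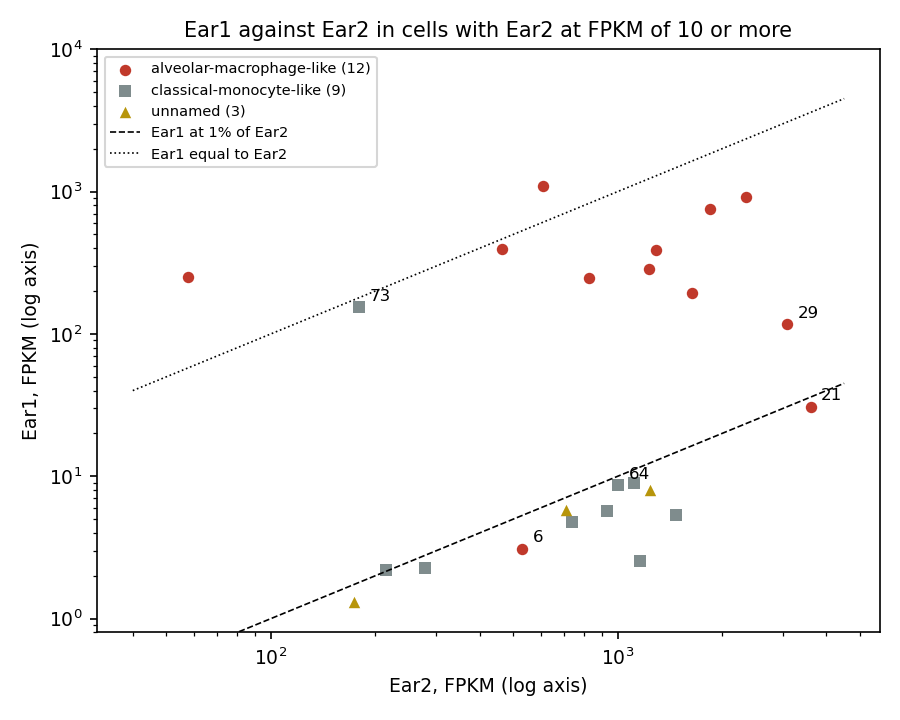
Ear1 against Ear2 in the 24 cells with Ear2 at FPKM of 10 or more, both on log axes of FPKM, with shapes for the clusters, a dashed line where Ear1 is 1% of Ear2 and a dotted line where they are equal. Of the cells near the dashed line 11 are outside the group and 2 (cells 6 and 21) are alveolar, and cell 73 lies with the other 10 alveolar cells.

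Most pairs of the 10 genes were correlated over all cells, and few were within the alveolar group. Over the 73 cells the 45 pairs had Pearson correlations of log2(FPKM + 1) from 0.094 (Marco with Siglec5) to 0.854 (Ear1 with Plet1), 28 of them above 0.5. The 12 alveolar cells lie apart from the rest in these values. Within the 12 cells Spearman correlations ran from -0.497 (Plet1 with 1100001G20Rik) to 0.804 (Car4 with Marco), and 1 pair, the latter, was above 0.5. The points are cells of 1 mouse and 1 sort that differ in depth.

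The spread among alveolar cells was of 2 kinds. Coefficients of variation were 0.568 to 0.929 for 1100001G20Rik, Ear2, Plet1, Krt79, Ear1 and Itgax, and 1.58 to 2.0 for Car4, Fabp1, Siglec5 and Marco. The highest cell stood at 9.54 (Car4), 34.3 (Fabp1) and 35.8 (Marco) times the alveolar median. For Siglec5 it stood at 149 times, over a median of only 0.133. Cell 91 had Fabp1 at 4183 with Marco at 0, and cell 6 had Marco at 1866 with Fabp1 at 0, but 5 of the 12 cells held both, among them cell 17 (559 and 561) and cell 19 (387 and 462). Cells 21 and 29, the 2 with the highest Ear2 (3599 and 3085), had Fabp1 at 1501 and 1475, Krt79 at 0 and 0.793 and Marco at 2.03 and 0.

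The genes outside the set that most resembled the mean of the 10 over 73 cells, among 6142 genes detected in at least 8 cells, were Atp6v0d2 (r = 0.910), Ccnd2 (0.855), Hebp1 (0.851), Ctsk (0.849), Krt19 (0.846), Ltc4s (0.831), Cd9 (0.815), Lpl (0.812), Net1 (0.787) and Klhdc4 (0.774). Atp6v0d2, a subunit of the vacuolar proton pump, was also the nearest single gene to Plet1 (0.892), 1100001G20Rik (0.826), Car4 (0.809) and Ear1 (0.807). It was detected in 12 of 12 alveolar cells and 4 of 61 others. Cd9, a tetraspanin, was nearest to Ear2 (0.781) and Itgax (0.693) and was more widespread, in 12 and 24 cells. Krt79 lay nearest to Trim29 (0.794), Fabp1 to Krt19 (0.814), Marco to Ccnd2 (0.730) and Siglec5 to Klhdc4 (0.581). Because the 10 genes were picked for their levels in the alveolar cells, other genes largely confined to those cells rank high here by design. Atp6v0d2, Ctsk, Krt19, Ltc4s and Lpl are also among the markers by which the alveolar cluster was picked. Nothing further is read from these ranks.

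Relatives of the 10 genes were counted in lists of their families, where few genes were detected often enough for a call. Of 18 measured genes in the ribonuclease list, 5 were detected in at least 8 cells, and 0 of these 5 were 2 log2 units higher or lower in the alveolar group, where 6.26% of all genes were higher by that size and 2.68% lower. Rnaset2a and Rnaset2b in that list belong to another ribonuclease family. Ear6, in too few cells for that set, had a difference of 2.23 and was detected in 4 alveolar and 2 other cells, with a highest value of 2425, and Ear10, whose coding sequence matches that of Ear2 at 97.01% of columns, reached at most 2.40. Of the carbonic anhydrases and of the other Siglecs, 2 each were detected in at least 8 cells and 0 were called in either direction. With so few genes, a count of 0 is near the share over all genes.

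Over all 6151 genes detected in at least 8 cells, 6.26% were higher in the group by at least 2 log2 units. Both other fatty acid-binding proteins detected in at least 8 cells were higher in the group: Fabp5 in 12 of 12 cells against 17 of 61, at 803 ± 1664 against 145 ± 609, and Fabp4 in 7 against 6. Of 5 scavenger receptors in that many cells Cd36 was higher, in 11 against 16 cells, while Msr1 was detected in 2 alveolar and 31 other cells (difference -1.54, short of the size for a call). Of 2 keratins Krt19 was higher, in 10 and 3 cells. Fabp4 and Krt19 are among the 12 other alveolar markers by which the alveolar cluster was picked, so their direction was partly set by that choice.

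Among 4 leukocyte integrins detected in at least 8 cells, Itgb2, the beta chain that pairs with CD11c, was higher by 2.13 log2 units (12 of 12 against 47 of 61 cells). Itgam, the CD11b chain, was lower by that measure at -3.00, with 0 of 12 against 43 of 61 cells. Of 2 proteins with a whey acidic domain, Wfdc17 was lower at -4.86, in 7 of 12 and 56 of 61 cells, opposite in direction to 1100001G20Rik. Over all 6151 genes in that many cells, 6.26% were called higher and 2.68% lower.

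All 14 regulators in the list were detected in at least 8 cells, and 4 were higher in the alveolar group, where 6.26% of all 6151 genes were. Pparg, which encodes PPAR-gamma, was at 181 ± 225 in 10 of 12 cells against 7.80 ± 57.7 with 3 of 61, and Bhlhe41 (difference 3.78), Tgfbr2 (3.34), a TGF-beta receptor chain, and Bhlhe40 (2.03) were higher too. Pparg and Bhlhe41 are among the 12 other alveolar markers by which the alveolar cluster was picked, so their direction was partly set by that choice. The GM-CSF receptor chains Csf2ra and Csf2rb were detected in 11 and 9 alveolar cells and in 45 and 44 others, with differences of 1.02 and 0.83 that did not reach 2.

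Sequence shared by the start sites was searched for 9 of the 10 genes with an entry in the RefSeq promoter table (GRCm38.p6), from 250 bases before to 50 after the start, on both strands, and shares of all windows refer to that table. Of the motifs searched, the PU.1 motif contains the ETS core GGAA, which was found in 9 of 9 and in 96.0% of all windows, and no other motif contains another. The C/EBP motif TTGCNNAA was found in 4 of 9 (Ear1, Ear2, Plet1 and Fabp1) and in 10.8% of all 32851 windows. In Ear1 and Ear2 it began at -92 and -90, in the stretch common to both. The AP-1 motif TGANTCA was found in 2 of 9 (Plet1 and Itgax) and in 7.81% of all, and TATAAA in 3 of 9 (Car4, Plet1 and Fabp1) and in 13.6%. The PU.1 motif GAGGAAGT was in 0 of 9 and 3.20% of all, and the motif of PPAR-gamma with its partner RXR, 2 copies of AGGTCA with 1 base between them, in 0 of 9 and 0.0396%. Such matches are letters in these windows only.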

How the data were processed

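The submitters' processing notes name mm10 as the build and list Cuffnorm, Cufflinks 2.2.1, TopHat2 2.1.0 and CASAVA 1.8. Neither the gene annotation nor a cell filter is given in the sources used here. The authors deposited FPKM per gene and cell, and a second table whose signal is fragment counts divided by a factor per cell. Of 100062 values of that signal between 0.5 and 20 steps, 99.6% were whole to within 0.1, and dividing by the step gave the estimated fragments. No count model was fitted, since all 73 cells form 1 group. Columns were matched to cells by the number in the title, with 0 left over.

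From the deposited FPKM, detection was set at 1 or more. Spike-in rows were removed. The 1000 most variable genes detected in at least 8 cells, without the 10 genes described, were taken as log2(FPKM + 1) to 10 principal components. Ward trees with 2 to 6 clusters were compared, and the one with the best silhouette and no cluster under 5 cells was used (4 clusters). The clustering was tested on simulated data. Clusters were named from at least 3 listed markers among 10 leading genes. Intervals are Clopper-Pearson at 95%. Differences between clusters of cells of 1 mouse carry no p-value. A gene was called higher or lower at a log2 difference of 2. Named are the 10 genes, listed markers and relatives, the genes most like them, and outside cells with at least 3 of the genes or the highest value of one. Other outside cells were named after their values were seen. The genes and lists were chosen with earlier results of these data known. Alternatives covered thresholds, clustering, depth and left-out cells. Python 3.11.15, scipy 1.17.1 and scikit-learn 1.9.0 were used. The result for 1 listed regulator is not reported here.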

Additional observations from a re-analysis of the deposited data

Results flagged for a closer look

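A single spike-in row held values in all 73 cells and made up 14.2 to 70.9% of a cell's estimated fragments, with a median of 36.6%. It stood outside the main measurement and was kept out of every value for the 10 genes.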

How the results depend on the processing

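The alveolar group had 12 cells and 12 to 15 over 10 alternatives, each of which kept the 12. With 6 of the 12 other markers as its definition it also took in cells 13, 64 and 75, with FPKM rescaled to 1 total cells 2 and 54, and after thinning cells 64 and 83. K-means and clustering with no filter on low genes gave no group with the name (1 and 71 cells in the nearest cluster), so they have no values here. Genes with over 50% of carriers in the group numbered 7, and 7 to 9 over 16 alternatives. Outside cells with at least 3 of the genes numbered 10, and 5 at FPKM of 10 or more, where fewer values count. They numbered 6 without cells 13, 64, 73 and 75 and 6 with Ear1 set to 0 at 2% of Ear2 or less, both alternatives chosen after seeing the data, and 13 of 16 alternatives stayed within 1.5 times. Of 160 outside counts for single genes under these alternatives, 140 stayed within that range. Some alternatives could not move the counts of genes or outside cells, since they returned the same 12 cells and left detection unchanged. They were the 10 genes kept in, 2 or 4 clusters, other numbers of variable genes, more components and another pseudocount. The setting with 4 clusters was the main one itself. Only alternatives that changed the group, the values, the detection rule or the cells tested these counts. No paired analysis was possible because all cells form 1 group. Siglec5 rested on 756 fragments over all cells, and its counts of carriers were the same after thinning.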
